A study of Mus musculus and Homo sapiens with 12 samples.

Results

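B1 is the mouse family of short interspersed elements (SINEs) that repeat annotations file under SINE/Alu, next to the Alu elements of primates. Its members were all rows of the mm10 repeat table whose class is SINE and whose family is Alu, 568616 of the 3158171 annotated elements (18%), in 16 subfamilies. Of these, 44388 (7.81%) had counts in at least 1 library, and a single library had counts in 8905 to 11229 of them. The libraries were made from RNA of the chromatin fraction (caRNA), which was fragmented and pulled down with an antibody to 5-methylcytosine (m5C). They come from wild-type (WT) mouse embryonic stem (mES) cells and from Tet2-/- (KO) mES cells, with 3 libraries per genotype. TET2 is an enzyme that oxidises methylated cytosine in DNA and RNA. Both lines were received from another laboratory, grew in the same medium with serum, LIF, CHIR99021 and PD0325901, and were passaged on gelatin to clear feeder cells. The comparison of KO with WT asks which B1 RNAs differed in the m5C-bound caRNA when TET2 was absent. The labels do not say whether the replicates are separate cultures or whether a line is 1 clone, so p-values measure the spread between these samples.

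B1 elements descend from 7SL RNA, the RNA of the signal recognition particle, and carry an internal RNA polymerase III promoter made of an A box and a B box. They move through the enzymes of LINE-1 and leave copies that collect mutations. The B1_Mm and B1_Mus subfamilies are the younger ones, B1_Mur and B1F are older, and the PB1 subfamilies are older still. Many copies lie in introns and are also transcribed as part of genes, and CpG dinucleotides, which decay quickly when methylated in DNA, are more frequent in young copies.

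The sequences of 1 counted element per group show what was counted. For each group the element of 120 to 200 bases with the highest mean count was taken, apart from the chromosomes that were left out, and read 5′ to 3′ on the strand of the element (mm10, RefSeq assembly GRCm38.p6), with every CpG in capitals. The B1_Mus1 copy lies in Malat1, a gene of a long non-coding RNA, was counted in all 6 libraries and holds 6 CpG.
B1_Mm, chr12:23197890-23198033, minus strand: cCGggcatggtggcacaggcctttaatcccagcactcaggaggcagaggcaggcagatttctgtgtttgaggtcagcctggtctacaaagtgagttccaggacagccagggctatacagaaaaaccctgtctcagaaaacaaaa
B1_Mus1 in Malat1, chr19:5801969-5802116, minus strand: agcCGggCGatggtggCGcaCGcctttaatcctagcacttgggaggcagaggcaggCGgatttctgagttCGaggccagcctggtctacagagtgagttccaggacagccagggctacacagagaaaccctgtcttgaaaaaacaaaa
B1_Mur3, chr12:22093900-22094041, minus strand: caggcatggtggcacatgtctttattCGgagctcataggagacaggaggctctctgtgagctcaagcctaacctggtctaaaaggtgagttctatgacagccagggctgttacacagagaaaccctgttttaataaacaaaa
B1F2, chr1:85307106-85307266, plus strand: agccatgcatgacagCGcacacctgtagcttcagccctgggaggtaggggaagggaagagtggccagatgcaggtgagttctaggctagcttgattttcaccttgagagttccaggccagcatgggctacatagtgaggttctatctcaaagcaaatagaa
PB1D7, chr1:150013605-150013724, plus strand: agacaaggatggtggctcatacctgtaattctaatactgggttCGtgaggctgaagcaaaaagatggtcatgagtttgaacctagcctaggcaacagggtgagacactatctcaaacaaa
The B1_Mm element holds 1 CpG, against a mean of 3.07 over all B1_Mm elements. The mean was 2.26 for B1_Mus, 0.828 for B1_Mur, 0.725 for B1F and 0.687 for PB1.

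The study also designed primers to amplify B1_Mm RNA after bisulfite treatment, which turns unmethylated C into T. They show which stretch of the element that assay reads. The 25 bases at the 3′ end of the upstream and of the downstream primer are given first, each followed by the most frequent genomic stretch that it fits, on the strand of the element, with capitals at the C that conversion turns into T. The downstream primer is complementary to the converted RNA, so its match reads in the other direction.
Upstream primer: tagtatttgggaggtagaggtaggt
Most frequent upstream match: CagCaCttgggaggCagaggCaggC
Downstream primer: ttttattttttcaaaacaaaatttc
Most frequent downstream match: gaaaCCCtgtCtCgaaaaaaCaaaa
Allowing for the conversion and with no other mismatch, the upstream site lay in 13346 of 42316 B1_Mm elements with sequence and in 64299 of 567572 B1 elements, counting 30 bases on either side of each. Both sites lay in 373 B1_Mm and 1029 B1_Mus elements. These 373 held between 0.527% and 4.31% of the B1_Mm counts of a library. The 1414 B1 elements with both sites held between 0.932% and 2.1% of all B1 counts, so most B1 counts lay outside elements with both exact sites.

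The values are estimated counts of reads per element. Total counts over the repeat classes DNA, LINE, LTR and SINE lay between 2199886 and 3318565 for WT and between 1532029 and 1999210 for KO libraries, a log2 ratio of mean totals of -0.73. B1 counts did not follow the totals. They were 22607, 28205 and 26788 in WT and 28773, 19449 and 26833 in KO libraries, a log2 ratio of means of -0.05. The table holds repeat elements and no genes, input RNA or spike-in reads. Tet2 itself and markers of mES cells could therefore not be checked. Each difference below is relative to the other repeats in a library, and RNA abundance, m5C enrichment and a lower level of other repeats cannot be told apart.

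The share of B1 in the repeat counts was higher in every KO library than in any WT library. It was 1.03%, 0.889% and 0.807% in WT and 1.67%, 1.27% and 1.34% in KO, or 0.908% ± 0.111 against 1.43% ± 0.214 (SD, n = 3 each), a log2 ratio of 0.65. The exact permutation test over the 20 assignments of the libraries, two-sided, gave p = 0.1, the smallest it can give with 3 against 3, and 0.23 after Benjamini-Hochberg adjustment over 7 shares and ratios. A share above all WT libraries was common among repeat families: 6 of the 11 families with at least 0.05% of the counts (54.5%) showed it. B4, a SINE family that joins a B1-like part to an ID-like part, went the same way, from 0.432% ± 0.104 to 0.618% ± 0.0600 (exact p = 0.1), while B2, which derives from a transfer RNA, overlapped between genotypes at 1.02% ± 0.147 and 1.17% ± 0.137 (exact p = 0.2).

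The ratio of B1 to B2 within a library does not depend on how libraries are scaled. It was 0.864, 0.973 and 0.835 in WT and 1.65, 0.997 and 1.10 in KO libraries. The groups did not overlap, but KO replicate 2 lay only just above WT replicate 2, and the exact permutation p was again 0.1 (log2 ratio 0.46). The log2 ratio fell to 0.24 without KO replicate 1. The ratio of B1 to B4 was 2.17 ± 0.466 in WT and 2.34 ± 0.543 in KO (SD, n = 3 each, exact permutation p = 0.7), so no difference between these families was detectable against the spread of the libraries. Without WT replicate 2 its log2 ratio of 0.11 became -0.082, and without KO replicate 1 it became -0.064.

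Subfamilies were compared with the edgeR quasi-likelihood test over all 547 repeat subfamilies that passed the filter on low counts. Of these, 11 were called at an adjusted p under 0.05 (2.01%). Of the 15 B1 subfamilies tested, 0 were called. At an unadjusted p under 0.05, 2 B1 subfamilies were higher in KO and 0 were lower, beside 8.78% and 7.13% of all subfamilies. The log2 change, KO minus WT, was above 0 in 13 of the 15, with a median of 0.39, beside a median of 0.12 over all 547 subfamilies and of 0.36 over the 19 other SINE subfamilies. The DESeq2 Wald test called 1 B1 subfamily, B1_Mm, beside 10.2% of all subfamilies. When the libraries were scaled on the SINE subfamilies alone, the B1 median became -0.02 and 7 of 15 changes were above 0, so the direction of 6 subfamilies depended on this choice.

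B1_Mm, a young subfamily, was counted at 1872, 762 and 1099 CPM (counts per 1000000 repeat counts after scaling) in WT libraries and at 4250, 1547 and 3095 CPM in KO libraries. The groups overlapped, because WT replicate 1 lay above KO replicate 2. The means were 1245 ± 569 and 2964 ± 1356 CPM (SD, n = 3 each), and the log2 change was 1.25 ± 0.45 (SE), with an edgeR adjusted p of 0.24. DESeq2 gave an adjusted p of 0.021 for it. Under scaling on the SINEs alone the log2 change was 0.91. Its place as the highest of the 15 was lost in 4 of the 6 fits that leave out a library: PB1D11 was higher when WT replicate 2 or KO replicate 1 was dropped, B1_Mur3 when WT replicate 3 was, and B1_Mur4 when KO replicate 3 was. Without elements counted mostly in 1 library, B1F2 stood at 1.15 and B1_Mm at 1.02.

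B1_Mur4, an older subfamily, was the only one of the 15 whose CPM did not overlap between genotypes, beside 11.2% of all subfamilies that were higher in every KO library and 10.4% that were lower in each. It was at 466, 524 and 453 CPM in WT and at 1348, 911 and 599 CPM in KO, a log2 change of 0.98 ± 0.34 (SE) with an edgeR adjusted p of 0.23. The WT libraries lay close together, and most of the spread was among KO libraries.

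The B1_Mus subfamilies, which held the most B1 counts, had log2 changes of 0.47 and 0.13. B1_Mus1 was at 2365, 1947 and 1655 CPM in WT and at 3673, 2725 and 1871 CPM in KO, with a log2 change of 0.47 ± 0.27 (SE). B1_Mus2 was at 2345 ± 138 CPM in WT and 2570 ± 414 CPM in KO (SD, n = 3 each), with a log2 change of 0.13 ± 0.17 (SE), close to the median of all subfamilies.

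Among the other B1_Mur subfamilies the log2 changes were -0.18 ± 0.46 for B1_Mur1, 0.15 ± 0.46 for B1_Mur2 and 0.53 ± 0.59 for B1_Mur3, each with an SE larger than the change itself. B1_Mur3 reached 997 CPM in WT replicate 3 against 314 and 199 in the other WT libraries. B1F, B1F1 and B1F2 had log2 changes of 0.22 ± 0.31, 0.41 ± 0.59 and 0.54 ± 0.42, all with overlapping groups. Single libraries moved these values. B1F lay between 0.074 without WT replicate 1 and 0.40 without KO replicate 2, B1F1 between 0.011 without KO replicate 2 and 0.94 without WT replicate 1, and B1F2 between 0.27 without KO replicate 2 and 0.83 without KO replicate 1. B1_Mur3 lay between 0.13 without WT replicate 2 and 1.49 without WT replicate 3. The log2 changes of PB1, PB1D9, PB1D10 and PB1D11 were 0.09 ± 0.54, 0.15 ± 0.45, 0.39 ± 0.38 and 0.85 ± 0.69. PB1D11 lay between 0.16 without KO replicate 3 and 1.48 without WT replicate 2. PB1D7 had the lowest log2 change, with 229, 667 and 149 CPM in WT and 250, 159 and 130 CPM in KO and a value of -0.95 ± 0.64. That value rests on WT replicate 2: without that library it was -0.079. In WT replicate 2, 81.1% of the PB1D7 counts came from 101 elements between 2000000 and 8000000 on chromosome 14, a window chosen after the values were seen, where the other 5 libraries had 0 counts. The subfamily FAM, an ancient monomer with 630 annotated elements, did not pass the filter. It had at most 7 counts in 5 libraries and 193 in KO replicate 2.

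**Figure D1:**
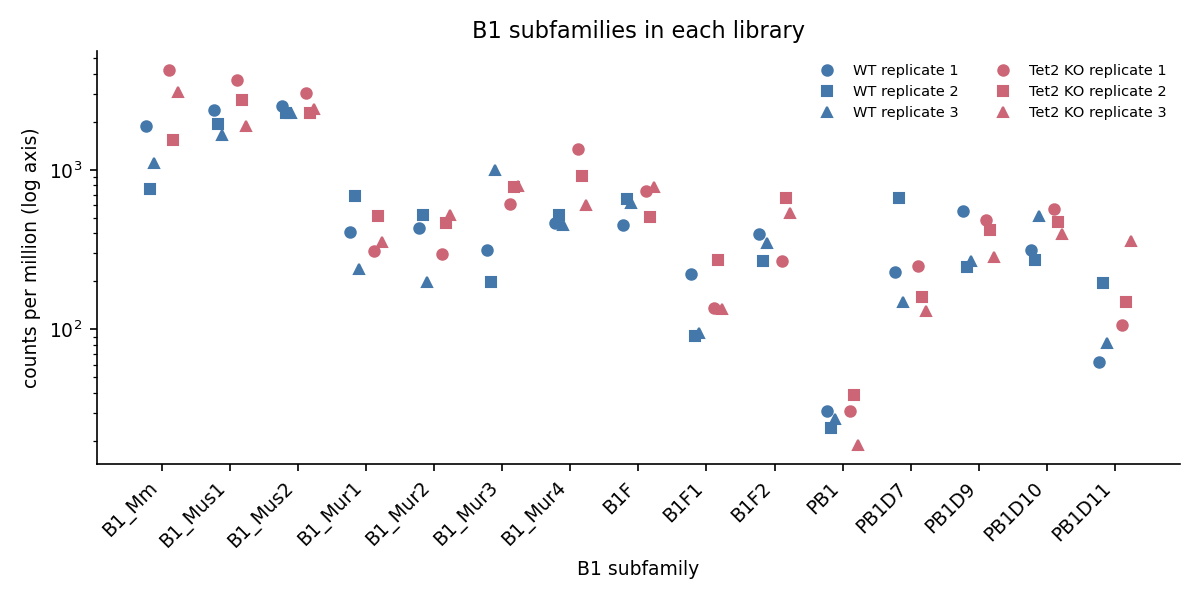
CPM (log axis, after edgeR scaling) of the 15 B1 subfamilies tested, by library, with WT in blue and Tet2 KO in red and a symbol per replicate. The groups overlap for 14 of the 15, and B1_Mur4 is the exception.

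**Figure D2:**
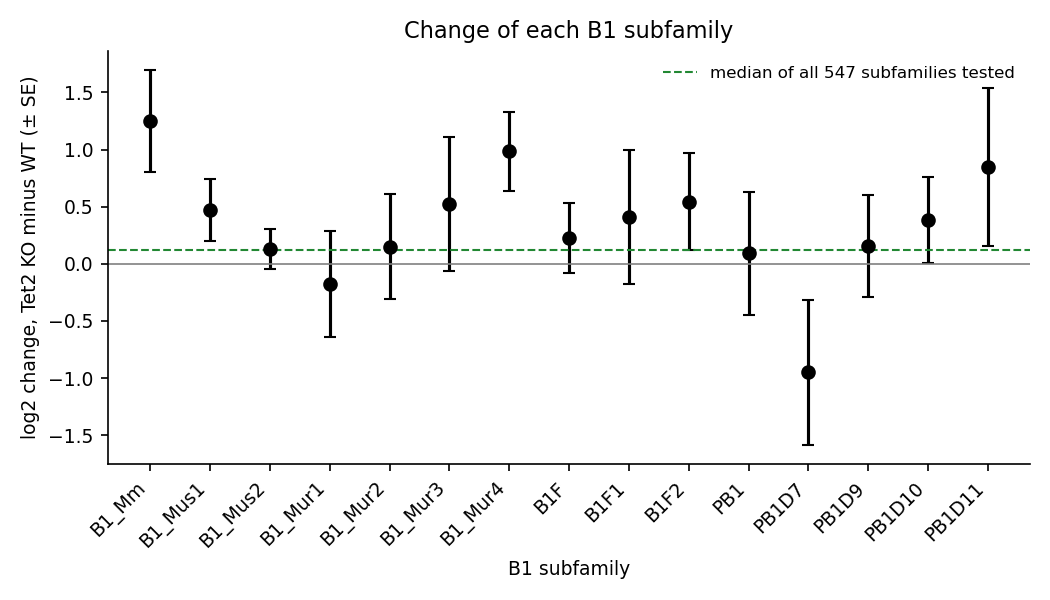
Log2 change, Tet2 KO minus WT, of each B1 subfamily (points, bars ± SE from the edgeR fit over 3 libraries per genotype), with a dashed line at the median of all 547 subfamilies. With all libraries B1_Mm has the highest value at 1.25 and PB1D7 the lowest at -0.95.

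A level per annotated length puts the subfamilies on a common scale. In counts per kilobase of annotated element per 1000000 repeat counts, the WT libraries had, among the 15 tested subfamilies, the highest mean level for B1_Mus2, 0.241 ± 0.0222, followed by B1_Mm at 0.206 ± 0.0994, B1F2 at 0.170 ± 0.0339, B1_Mur3 at 0.148 ± 0.121 and B1_Mus1 at 0.146 ± 0.0313 (SD, n = 3 each). Neighbours in this order differed by less than their spread. The lowest of those tested were PB1D11 at 0.0519 ± 0.0335 and PB1 at 0.0358 ± 0.00506. In the KO libraries B1_Mm came first among those tested at 0.551 ± 0.246, before B1_Mus2 at 0.298 ± 0.0423 and B1F2 at 0.282 ± 0.119, and PB1 was again the lowest tested subfamily at 0.0433 ± 0.0144.

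Within B1, the subfamily shares describe the make-up of the family irrespective of its amount. B1_Mm made up 17.6%, 8.16% and 12.2% of the B1 counts in WT libraries and 26.4%, 12.9% and 25.2% in KO libraries, with overlapping groups (exact permutation p = 0.2, two-sided). B1_Mus2 made up 23.6%, 24.4% and 25.1% in WT and 18.9%, 19.0% and 19.5% in KO libraries, so all KO values lay below all WT values with a tight spread in each group (log2 ratio -0.35, exact permutation p = 0.1, the smallest possible). PB1D7 was the other subfamily whose KO shares, 1.06% to 1.55%, all lay below its WT shares, 1.65% to 7.14%. After adjustment over the 15 subfamilies, 0 passed, and the design with 3 against 3 cannot reach 0.05. As a group, B1_Mm elements are 7.46% of all B1 elements, B1_Mus 28.8%, B1_Mur 23.6%, B1F 14.2% and PB1 25.9%. B1_Mus held 34.7% to 45.9% of the B1 counts of a library and PB1 8.96% to 15.0%. Against their numbers of elements, the young groups were thus over-represented and PB1 under-represented in every library of both genotypes. Length is not counted in this, and the median was 143 bases in B1_Mm and 96 to 105 in PB1 subfamilies. Per kilobase, B1_Mm in WT replicate 2 was at 0.127, below PB1D7 at 0.267 and above the other PB1 subfamilies. The share of all repeat counts was higher in each KO library than in any WT library for B1_Mur, at 0.157% to 0.184% against 0.248% to 0.282%, and for B1F, at 0.0955% to 0.103% against 0.118% to 0.159%, while B1_Mm, B1_Mus and PB1 overlapped between genotypes. Of the repeat families above, 54.5% were separated in this way.

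The CpG content of an element went with how often it was counted. Elements with 6 CpG or more were 2.81% of the B1 elements with sequence but held 11.9% to 20.9% of the B1 counts of a library, and elements with 0 CpG were 39.4% of the elements and held 23.2% to 27.8% of the counts. Counts were found at 3.61% of the elements with 0 CpG, 5.92% of those with 1 to 2, 17.1% of those with 3 to 5 and 39.6% of those with 6 or more. Among elements of 120 bases or more these shares were 4.18%, 6.83%, 18.2% and 40.2%, in the same order. The order was the same within each group of subfamilies, from 4.53% to 41.2% in B1_Mm, 3.99% to 19.0% in B1_Mur and 3.17% to 19.9% in PB1. Over all B1 elements, the shares of counts of WT and KO libraries overlapped in each CpG class. Within the subfamily groups some classes were separated, each with higher shares under KO. B1_Mur elements with 3 to 5 CpG held at most 6.08% of the B1_Mur counts of any WT library, against at least 7.90% under KO. For PB1 with 3 to 5 CpG these limits were 6.565% and 7.031%, and for B1F with 1 to 2 CpG 40.95% and 42.47%. That B1F class includes a single B1F2 copy on chromosome 8 with 1 CpG, described below. This copy had 174, 0 and 0.96 counts in WT libraries and 216, 312 and 612 in KO libraries. The class was not computed without it, so no shift across the class is read from these limits. The other classes overlapped in every group, and these separations were not tested. The mean number of CpG in an element, weighted by counts, was between 2.25 and 2.75 in all 6 libraries, against 1.36 over the B1 elements themselves. Within B1_Mm this weighted mean was lower in each KO library, at most 3.851, than in any WT library, at least 3.905. A window on chromosome 12, described below, weighs on this narrow gap. It held 19.5%, 1.40% and 0.449% of the B1_Mm counts in WT libraries and 11.5%, 25.8% and 35.5% in KO libraries. Its most counted B1_Mm copy, printed above, holds 1 CpG. The weighted mean without this window was not computed, so no shift across B1_Mm is read from it. In the other groups the weighted mean overlapped between genotypes.

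The share of values below 1 moved with CpG content as well. Of the non-zero values, 22.6% were below 1 in elements with 0 CpG and 49.5% in elements with 6 CpG or more. By subfamily this share was 50.7% in B1_Mm, 45.1% in B1_Mus1 and 48.5% in B1_Mus2, against 11.0% in PB1D7 and 11.3% in PB1. The share of elements whose counts summed to at least 1 was 2.95%, 4.28%, 9.95% and 24.5% over the CpG classes, in the same order. The mean total over all libraries was 0.168 counts per element with 0 CpG and 1.49 with 6 CpG or more. The counting options behind these fractional values are not given in the sources used here, and their part in the CpG pattern was not tested.

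The B box of the RNA polymerase III promoter was searched as GTTCGANNC on both strands. It overlaps a CpG by its own letters. It was found on the element strand in 74726 B1 elements (13.2%) and on the opposite strand in 0.0738%. By subfamily the share was 42.0% in B1_Mm, 27.6% in B1_Mus1, 34.7% in B1_Mus2, at most 6.35% in B1_Mur subfamilies and at most 1.76% in B1F and PB1 subfamilies. Elements with the motif held 28.0% to 38.0% of the B1 counts, and 21.4% of them had counts, against 5.75% of the elements without it. Of the elements printed above, the B1_Mus1 copy in Malat1 holds it.

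The place of the elements relative to genes was read from GENCODE M21. Elements that overlap an exon held 6.00% ± 0.265 of the B1 counts in WT libraries and 6.53% ± 1.07 in KO, against 3.89% of the elements. Intronic elements held 55.4% ± 3.28 and 55.3% ± 5.14, against 53.8% of the elements, and elements outside genes 38.4% ± 3.10 and 37.9% ± 6.19 (SD, n = 3 each), against 42.1%. None of these shares separated the genotypes (exact permutation p from 0.7 to 1, two-sided). Among elements in genes, those on the strand of the gene were 44.8% of the elements but held 60.3% ± 7.63 of the counts in WT libraries and 64.4% ± 6.68 in KO (exact permutation p = 0.6). In introns, counts were found at 11.3% of 131349 elements on the gene's strand and at 6.67% of 163021 on the opposite strand. Whether the counting used strand is not given in the sources used here. Whether a read came from an RNA polymerase III transcript or from a gene's transcript is not given by the table.

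The counts were concentrated in few elements, and many of these were counted in a single library. The 10 highest B1 elements held 6.07% of all B1 counts, the highest 100 held 25.1% and the highest 1000 held 55.6%. Of the 858 elements with at least 20 counts, 563 (65.6%) had 90% or more of them in 1 library, and these held 22.5% to 43.0% of the B1 counts of a library. The B1F2 copy printed above, in an intron of Gm2619, had 460 counts in WT replicate 3 and 0 in the other libraries, and the PB1D7 copy, outside genes, had 64.3 and 78.3 counts in WT replicates 2 and 3 and 0 elsewhere. Counts in all 6 libraries were found at 157 elements, with 6.59% of the B1 counts. Without the elements counted mostly in 1 library, an alternative chosen after the values were seen, the log2 ratio of the B1 share was 0.78, all 15 B1 subfamilies had a log2 change above 0, PB1D7 became 0.42, B1_Mur1 became 0.81, and 0 were called. The median over all subfamilies was then 0.15.

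Single elements were tested in the same model over 19030 repeat elements, of which 9 were called (0.0473%). Of the 43 B1 elements tested, 0 were called. An unadjusted p under 0.05 with a higher value in KO was found for 21 of them, beside 13.1% of all elements, and 0 had one with a lower value. DESeq2 called 16 of the 43, all higher in KO, beside 11.3% of all elements. These 43 had passed a filter that asks for counts in as many libraries as a group holds, which an element high in the 3 KO libraries passes, so nothing is read from these counts. With a filter that looks only at the sum, at least 10 counts over the 6 libraries, 1575 B1 elements were tested. Of these, 91 (5.78%) had an unadjusted p under 0.05 and a higher value in KO, beside 6.05% of all elements, and 21 (1.33%) a lower value, beside 4.65%. The change was above 0 in 55.6% of these B1 elements and in 45.4% of all elements.

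The B1 element with the highest mean count was a B1F2 copy of 112 bases at chr8:20296172-20296283, in an intron of 6820431F20Rik. It had 174, 0 and 0.96 counts in WT libraries and 216, 312 and 612 in KO libraries. All KO values exceeded all WT values, yet WT replicate 1 was close to KO replicate 1, and the log2 change of 3.3 ± 1.81 (SE) had an adjusted p of 0.35 by edgeR. Without WT replicate 1 it was 7.89. A B1_Mus1 copy at chr8:20287849-20287998, in an intron of the same gene, had 992, 83.2 and 4.6 counts in WT libraries and 79, 4.5 and 3 in KO libraries, with a log2 change of -2.95 ± 1.92 (SE) and an adjusted p of 0.42 by edgeR. Its log2 change turned to 0.42 without WT replicate 1. The window from 19000000 to 21000000 on chromosome 8, chosen after the values were seen, holds 140 B1 elements. They made up 6.45%, 1.34% and 0.0715% of the B1 counts in WT libraries and 5.41%, 4.10% and 4.84% in KO. Its 7 B1F2 elements held 36.6%, 0% and 0.217% of the B1F2 counts in WT libraries and 67.4%, 45% and 79.7% in KO libraries, and without the windows on chromosomes 8 and 12 the log2 change of B1F2 was -0.62 in place of 0.54.

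The other window, from 18000000 to 24000000 on chromosome 12, holds 278 B1_Mm elements, 0.655% of that subfamily, outside annotated genes for the most counted ones. They made up 19.5%, 1.40% and 0.449% of the B1_Mm counts in WT libraries and 11.5%, 25.8% and 35.5% in KO libraries. Without both windows the log2 change of B1_Mm was 1.045 in place of 1.25. B1_Mur3, at 1.052 in place of 0.53, then stood just above B1_Mm. The median over the B1 subfamilies was 0.22 in place of 0.39. The B1_Mm copy printed above had 1, 6.4 and 4.67 counts in WT libraries and 20.8, 323 and 699 under KO, a log2 change of 6.72 ± 1.23 (SE) that edgeR put at an adjusted p of 0.10. A copy at chr12:18635639-18635782 is identical to it over all 144 bases and had 0, 6.17 and 2.33 counts in WT libraries and 15.4, 168 and 479 under KO, in nearly the same proportions across libraries. A copy at chr12:23652041-23652184 differs from it at 11 of 144 bases and had 0, 0 and 1 counts in WT libraries and 28, 83.5 and 330 under KO. Other B1_Mm copies of this window were high in 1 library each, one at chr12:22165145-22165293 with 657 counts in WT replicate 1 and 0 elsewhere, and one at chr12:22882655-22882798 with 602 counts in KO replicate 1. Since near-identical copies can share reads, the copy that gave rise to a read is uncertain here. The B1_Mur3 copy printed above lies in the same window and had 107, 0 and 979 counts in WT libraries and 0 in every KO library, and it did not pass the filter.

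The most evenly counted of the 5 highest elements was the B1_Mus1 copy in the exon of Malat1, an abundant nuclear RNA. It had 164, 175 and 218 counts in WT libraries and 113, 146 and 142 in KO libraries, lower in each KO library. In CPM after scaling it was at 79.2, 61.1 and 72.4 CPM in WT and at 81.9, 129 and 96.0 CPM in KO, higher in each KO library, with a log2 change of 0.52 ± 0.30 (SE) and an adjusted p of 0.36 by edgeR. The direction thus depends on whether the lower repeat totals of the KO libraries are taken into account. Gm37376 is annotated on the opposite strand at this place.

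The tested B1 elements with the smallest p and separate groups, none of them called, are given for their values. They passed the same filter through their KO libraries, so nothing is read from their direction. A B1_Mus2 element of 251 bases at chr11:79637161-79637411, in an intron and on the strand of Rab11fip4, had 1, 4.2 and 8 counts in WT libraries and 146, 106 and 56.0 in KO libraries. Its mean was 1.51 CPM in WT and 79.0 CPM in KO, a 52.2-fold ratio, with an edgeR adjusted p of 0.078 and a log2 change of 4.97 ± 0.69 (SE). All KO libraries lay well above all WT libraries. A B1_Mur4 fragment of 59 bases on an unplaced contig had 0 counts in each WT library and 31.3, 19 and 26 in KO libraries, which is at least 16.3-fold higher when each WT library is set to a floor of 3 counts (edgeR adjusted p = 0.078). The B1_Mm copy at chr12:23652041-23652184 had 1 count in WT against 442 in KO after rounding (edgeR adjusted p = 0.088). The ratio was 879, with an exact 95% interval from 157 to 34800 that covers counting error only. It leaves out the spread between the KO libraries, which had 28, 83.5 and 330 counts. This ratio was not taken from the mean CPM, 0.111 in WT and 106 in KO, so it is another measure than the 52.2-fold above.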

How the data were processed

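The measurements were 6 m5C-precipitated caRNA libraries of mES cells, 3 WT and 3 Tet2 KO. Per the submitters' processing notes and the study's methods, Trimmomatic 0.39 was used by the authors for trimming, HISAT2 2.1.0 for alignment to mm10, its transcriptome and spike-in sequences, and Picard for deduplication, before counting over repeat elements. The deposited values are estimated counts per element, partly fractional. The counting options are not given in the sources used here. The human table of the series was not used here.

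Counts were summed per subfamily over DNA, LINE, LTR and SINE elements, rounded, and fitted with edgeR 4.0.16 in R 4.3.3 (filterByExpr, TMM, quasi-likelihood test, prior count of 2, Benjamini-Hochberg adjustment over all features tested, threshold 0.05). Elements were fitted in the same way. DESeq2 1.42.0 and limma 3.58.1 were alternatives or dependencies. SE was the absolute log2 change over the square root of F. On simulated data with large planted changes, 197 of 200 changed subfamilies and 197 of 200 changed elements were recovered, with 6 and 10 false calls. The simulated spread between libraries was smaller than in these data. Here the fitted biological coefficient of variation was 0.663 for subfamilies and 0.656 for elements. The simulation therefore does not show how many changes would be found here. Shares were compared by exact permutation tests, two-sided, in SciPy 1.17.1. Gene annotation was GENCODE M21, not the release the authors used. All B1 coordinates fitted the reference chromosomes, except that 1044 B1 elements lay on other contigs and had no sequence here. Sequences from chromosomes 8 and 18 were not printed, so the B1_Mus element shown has the next highest count. Named were all B1 subfamilies, the 5 elements with the highest mean count, and, as none was called, the 3 tested elements with the smallest p per direction, with separate groups and at least 50 counts. In the lower direction 0 elements qualified, so the 3 given are all higher in KO. The members, lists and tests were chosen with earlier results of these data known. Alternatives were other scalings, filters, element sets, a replicate block and leaving out each library. The depth was 1532029 to 3318565 repeat counts per library, and intervals cover counting error only.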

Additional observations from a re-analysis of the deposited data

How the results depend on the processing

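The number of called B1 subfamilies was 0 under every alternative except the DESeq2 Wald test, which called 1, and the number of called B1 elements was 0 except under DESeq2, which called 16. With a replicate block the numbers of called B1 subfamilies and elements were 0 and 0. The labels do not say whether equal replicate numbers pair the samples. Over all subfamilies, the deviations of WT and KO libraries of the same number correlated at -0.09, -0.04 and -0.05, which cannot settle it. For B1_Mm the block gave a log2 change of 1.23 ± 0.19 (SE) with an edgeR adjusted p of 0.097. Without the block it was 1.25 ± 0.45 (SE), with an adjusted p of 0.24. Over all 547 subfamilies 11 were called, 7 with DESeq2 size factors, 5 with library totals, 56 with DESeq2, 7 without the 10 highest elements (none of them B1), 5 with elements of at least 10 counts, 7 without exon-overlapping elements, 0 with the replicate block and 5 to 7 when 1 library was left out. Over all elements 9 were called, 2158 with DESeq2, 1 with at least 10 counts, 0 with the block and 0 when any 1 library was left out. The median log2 change of all subfamilies was 0.12, 0.07 with DESeq2 size factors and 0.29 with library totals. The log2 ratio of the B1 share ranged from 0.53 to 0.74 when 1 library was left out, the B1 to B2 ratio from 0.24 to 0.60 and the B1 to B4 ratio from -0.082 to 0.27.

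Among 346 single-subfamily and single-element values, 318 kept direction and side of the threshold, 5 passed it under DESeq2 only and 23 changed sign. With TMM over the SINE subfamilies alone the log2 change became -0.16 for B1F, -0.20 for B1_Mur2, -0.25 for B1_Mus2, -0.30 for PB1, -0.017 for PB1D10 and -0.22 for PB1D9. With elements of at least 10 counts it became -0.031 for B1_Mur2 and -0.14 for PB1D9, without exon-overlapping elements -0.15 for PB1D9, and with no filter on low counts -0.012 for PB1. Without elements counted mostly in 1 library it became 0.81 for B1_Mur1 and 0.42 for PB1D7, and without the chromosome 8 and 12 windows -0.62 for B1F2. Leaving out 1 library gave ranges across 0 for B1_Mur1 (-0.49 to 0.27), B1_Mur2 (-0.17 to 0.43), B1_Mus2 (-0.0135 to 0.22), PB1 (-0.14 to 0.31), PB1D9 (-0.062 to 0.62) and the B1_Mus1 element on chromosome 8 (-5.53 to 0.42), and ranges from 0.89 to 1.67 for B1_Mm, 0.65 to 1.22 for B1_Mur4, 0.20 to 0.67 for B1_Mus1 and 0.20 to 0.70 for PB1D10. Shares within B1 and by genomic context gave 0 calls under each alternative, which a test with 3 against 3 cannot avoid. The causes of the sign changes were not tested. Sparse counts limit what single elements can show.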
